A study of Homo sapiens with 6 samples.

Results

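The genes described here are those whose symbol begins like that of a potassium channel gene (KCN), a voltage-gated calcium channel gene (CACNA, CACNB or CACNG), a voltage-gated sodium channel gene (SCN with a number) or a CLC chloride channel gene. They were taken from the annotated features of the array, with the brightest feature standing for a gene. This rule found 15 features for 14 genes, out of 14884 genes with a symbol. Of the 14 genes, 5 were protein-coding and 9 were antisense or other non-coding transcripts named after a channel gene at their locus. None of the 14 encodes a channel pore. In a table of human genes from RefSeq, 143 protein-coding symbols fit the same rule, and 138 of them were not analysed here, among them every pore-forming potassium, calcium, sodium and chloride channel gene. What follows therefore concerns auxiliary and regulatory genes and non-coding transcripts, not the channels themselves.

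Total RNA came from spheroid cultures of SW480, an established colorectal cancer line grown from a primary tumour, and SW620, an established line grown from a lymph node metastasis. Both grew as floating spheres without serum, with growth factors added, and neither carried a stated treatment or genetic change. Each line is represented by 3 arrays, which the series' design calls technical replicates, so every p-value below measures the spread between arrays of one line and not between separate cultures. The purpose stated for the series was to compare the tumour-initiating compartment of the lines.

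Voltage-gated potassium channels are assembled from pore-forming subunits and auxiliary subunits that set their gating, their trafficking or their number at the membrane. KCNE proteins are small membrane-spanning subunits, KCNIP proteins are calcium-binding subunits of Kv4 channels, and KCNRG is a soluble protein with a tetramerisation domain like that of Kv channels that lowers their current. In the colonic epithelium potassium channels keep the membrane potential that drives chloride secretion and sodium uptake. Several channel loci also make non-coding transcripts. The best known is KCNQ1OT1, an imprinted RNA made from the paternal allele in antisense to KCNQ1, which silences neighbouring genes in cis.

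All levels below are deposited log2 values, which spanned 1.99 to 13.9 over the table, and array medians lay between 4.04 and 4.07. No array stood apart: across features, which are not independent replicates, the lowest correlation between arrays of the same line was 0.988 and the highest between lines was 0.965. The epithelial marker EPCAM stood at 9.71 in SW480 and 9.61 in SW620 and did not pass the test described below. KRT18, KRT20, CDX1 and GPA33 did not pass either. The other measured epithelial markers did: CDX2 fell from 6.22 to 4.68, and VIL1, KRT19 and KRT8 rose by 0.62, 0.51 and 0.40. Of 9 measured colonic epithelial markers, 7 were above the floor defined below in each line, and KRT20 and CDX1 were below it in both. Among markers of other cells, 3 of 5 neuronal, 2 of 3 fibroblast, 3 of 5 leukocyte and 1 of 6 endothelial genes were above the floor in each line, and so were 2 of 4 muscle genes in SW480 and 1 of 4 in SW620. In the same test, which called 35.6% of all genes, 2 neuronal and 1 fibroblast marker rose in SW620, 2 muscle markers fell, and 1 leukocyte marker changed in each direction. The 2 muscle markers, TTN and DES, each had a dimmer feature that did not pass (0.0467 and -0.20, limma's adjusted p = 0.718 and 0.274). The part of all these markers in the differences of the genes described here was not tested.

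Most of the 14 genes were dim in both lines. A gene was taken as above the floor in a line where the mean of its 3 arrays exceeded that of the median feature of the whole table, 4.05 in SW480 and 4.06 in SW620. This level is a convention and not a detection limit, since probes differ in affinity. By it, 4 genes were above the floor in both lines, 10 were below it in both, and no gene crossed it between the lines. The 4 were KCNRG among the 5 protein-coding genes, and KCNQ1OT1, CACNA1G-AS1 and KCNQ1DN among the 9 non-coding ones. Of all genes measured, 64.0% were above the floor in SW480 and 62.5% in SW620. For protein-coding genes the shares were 70.5% and 68.6%, and for long non-coding RNA genes 36.0% and 35.2%. At the stricter level of the 75th percentile feature only KCNRG and KCNQ1OT1 remained, in both lines.

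**Figure D1:**
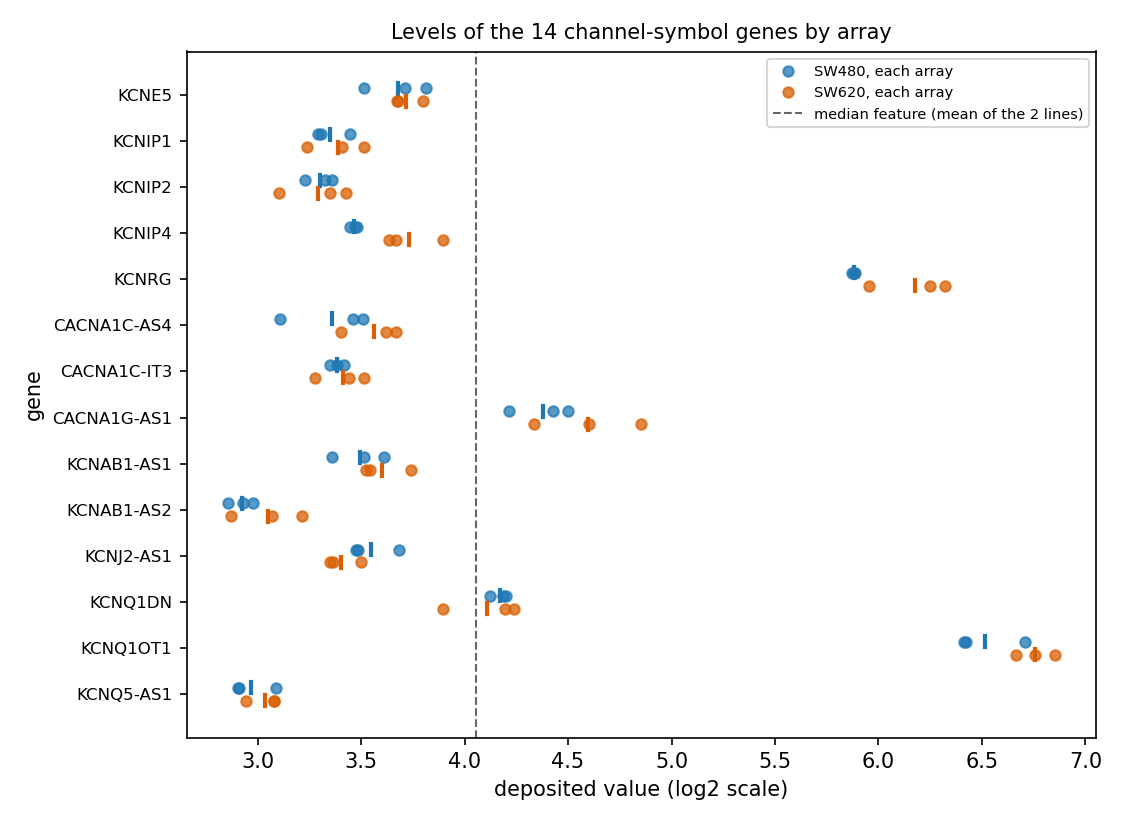
Deposited log2 value of each array (points, blue for SW480 and orange for SW620, 3 arrays each) and the mean of each line (short bars) for the 14 genes, protein-coding genes first, with the median feature of the table as a dashed line. KCNQ1OT1 and KCNRG sit well to the right of the line, CACNA1G-AS1 and KCNQ1DN lie close to it, and the other 10 genes lie to its left in both lines.

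The differences between the lines were small. In limma's moderated test 2 of the 14 genes passed an adjusted p below 0.05, KCNRG and KCNIP4, both higher in SW620, against 35.6% of all genes in either direction and 16.0% of all genes in that direction. No gene of the group passed as lower in SW620 (0 also at an unadjusted p below 0.05), where 19.5% of all genes did. The largest difference was 0.30 on the log2 scale, and none reached 2-fold, whereas 904 of all genes passed the threshold with at least that difference. The median difference of the 14 genes, SW620 minus SW480, was 0.0871, beside 0.0132 over all genes. The median absolute difference was 0.12, against 0.17 over all genes and 0.0863 over genes below the floor in both lines. Calls were rare among genes that dim, since 6.44% of the 4926 genes below the floor in both lines passed, while 50.0% of the 9958 genes above it in at least 1 line did. A gene above the floor in only 1 line is in the second class partly through its difference, so the grouping itself sets part of this contrast. The 95% intervals of the differences, taken gene by gene, lay within a 1.43-fold change in either direction for each of the 14. On dim features the background step of RMA can understate a fold, so these bounds hold for the array signal.

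**Figure D2:**
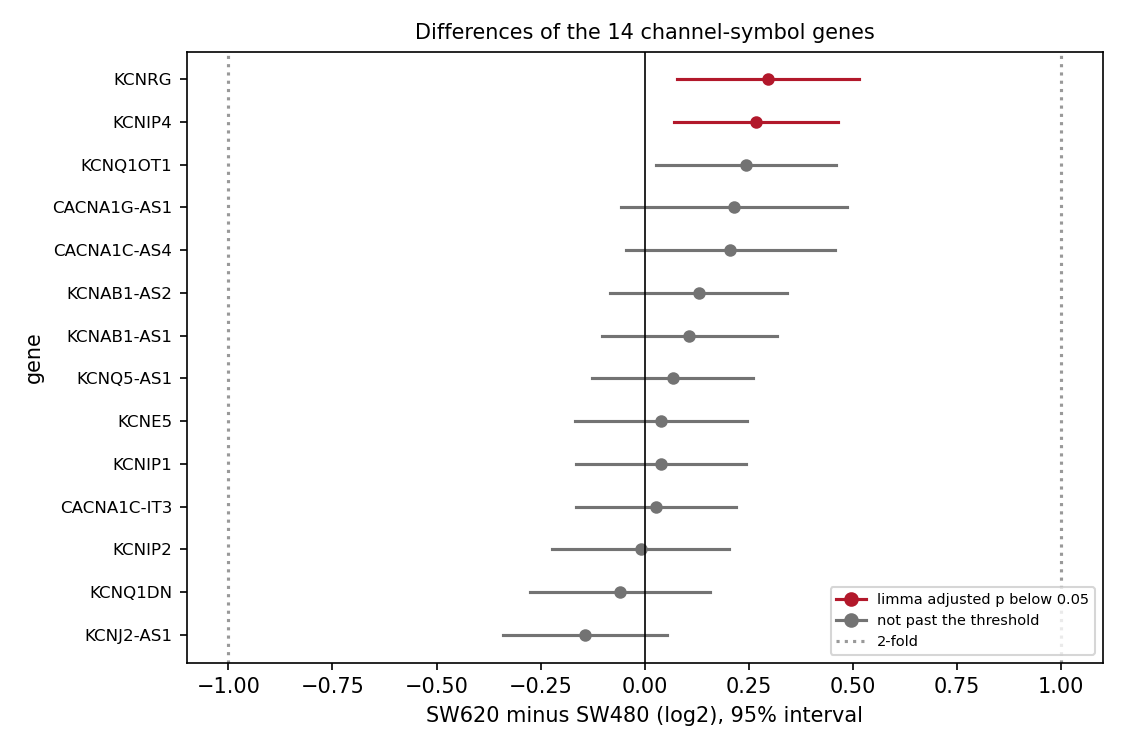
Difference between the lines for each of the 14 genes (SW620 minus SW480, log2 scale; points, with 95% intervals from limma as bars, 3 arrays per line), sorted from highest to lowest. KCNRG and KCNIP4, in red, passed the threshold at 0.30 and 0.27, and all intervals lie between the dotted lines that mark 2-fold.

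KCNRG had the largest difference. Its values were 5.88, 5.87 and 5.88 on the SW480 arrays and 5.96, 6.25 and 6.32 on the SW620 arrays. The SW480 arrays lay close together (5.88 ± 0.0078, mean ± SD, n = 3), the SW620 arrays were more spread (6.18 ± 0.19, n = 3), and the lowest SW620 array stood just above all of SW480. The difference was 0.30 (standard error 0.10, adjusted p = 0.0355 in limma), a 1.23-fold rise. Left-out arrays of SW620 moved it: it was 0.26 without replicate 2 (adjusted p = 0.113), 0.22 without replicate 3 (adjusted p = 0.127) and 0.41 without replicate 1 (adjusted p = 0.00459). Without any one of the SW480 arrays the difference stayed between 0.29 and 0.30, and with fewer arrays it did not pass (adjusted p from 0.0734 to 0.0867). In the RefSeq table KCNRG overlaps TRIM13, a ubiquitin ligase gene, and DLEU2. TRIM13 differed by 0.0602 (standard error 0.0879, adjusted p = 0.656), and DLEU2 was not analysed here.

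KCNIP4 passed the same threshold although it was below the floor in both lines. It read 3.47, 3.48 and 3.44 in SW480 and 3.89, 3.64 and 3.67 in SW620. The lines did not overlap, and SW620 replicate 1 was the highest. The difference was 0.27 (standard error 0.0906, adjusted p = 0.0350). Leaving out SW620 replicate 1 gave 0.19 (adjusted p = 0.148). Without any one of the SW480 arrays the difference was between 0.26 and 0.27 and, with fewer arrays, did not pass (adjusted p from 0.0718 to 0.0919). It was 0.24 both after a repeat quantile normalization (adjusted p = 0.0539) and after cyclic loess (adjusted p = 0.0577). The locus of KCNIP4 overlaps PACRGL in the RefSeq table. PACRGL rose by 0.63 (standard error 0.0944, adjusted p = 0.000156), from 5.25 to 5.88, and its part in the KCNIP4 signal was not tested. KCNRG and KCNIP4 were the 2 genes of the 14 whose arrays did not overlap between the lines, where 45.7% of all genes had arrays that did not.

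The start regions of KCNRG and KCNIP4 are shown because these are the genes called, one bright and one dim, and because their windows held the fewest (with KCNAB1-AS1) and the most CG dinucleotides of the group; they were chosen after these values were seen. The windows come from RefSeq (GRCh38.p14), run 5′ to 3′ on the gene's strand over 300 bases around the annotated start, most of them before it, and have CG dinucleotides in capitals. The KCNRG window is chr13:50015194-50015493 on the plus strand, and the KCNIP4 window is chr4:21948723-21949022 on the minus strand, the outermost of 3 starts in the table.
KCNRG: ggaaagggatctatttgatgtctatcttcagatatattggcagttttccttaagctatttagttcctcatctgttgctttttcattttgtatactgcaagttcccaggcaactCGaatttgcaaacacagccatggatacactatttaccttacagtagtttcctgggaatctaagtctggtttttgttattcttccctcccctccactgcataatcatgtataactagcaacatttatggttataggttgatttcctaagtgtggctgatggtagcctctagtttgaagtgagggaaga
KCNIP4: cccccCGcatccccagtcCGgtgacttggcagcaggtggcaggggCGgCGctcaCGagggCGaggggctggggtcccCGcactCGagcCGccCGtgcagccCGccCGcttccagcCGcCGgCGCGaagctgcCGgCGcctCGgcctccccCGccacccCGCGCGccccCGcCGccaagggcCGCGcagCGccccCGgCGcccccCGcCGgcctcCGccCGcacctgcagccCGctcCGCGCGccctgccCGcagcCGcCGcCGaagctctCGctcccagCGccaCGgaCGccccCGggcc
The dinucleotide CG, which reads the same on both strands and cannot overlap itself, occurred 1 time in the KCNRG window and 47 times in that of KCNIP4. At least 1 CG was found in 96.0% of 35116 windows of the same length, and 47 or more in 2.41%. The other starts of KCNIP4 held 8 and 18. Windows were given for 13 of the 14 genes, all but KCNQ1OT1. KCNE5, KCNIP1 and KCNIP2, dim in both lines, held from 6 to 27 CG at their starts, and among the brighter non-coding genes CACNA1G-AS1 held 15 and KCNQ1DN 38, beside a median of 14 over all windows. High and low CG content occurred both above and below the floor. Only 3 windows belonged to genes above it, too few to relate CG content to level. These counts describe the annotated starts, and no methylation or binding was measured.

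The remaining auxiliary subunits were dim and did not pass the test. KCNE5, an X-linked subunit that modulates KCNQ1 channels, read 3.71, 3.81 and 3.51 in SW480 and 3.67, 3.68 and 3.80 in SW620, with a difference of 0.0394 (95% interval -0.17 to 0.25). KCNIP1 ran from 3.29 to 3.45 in SW480 and from 3.24 to 3.51 in SW620 (0.0386, 95% interval -0.17 to 0.24). The brighter feature of KCNIP2, the Kv4 partner best known from heart muscle, ran from 3.23 to 3.36 and from 3.11 to 3.43 (-0.00927, 95% interval -0.22 to 0.20). Its other feature differed by -0.0349 (adjusted p = 0.826). For each of these genes the arrays of the lines overlapped. DPP6 and DPP10, membrane partners that join KCNIP proteins in Kv4 complexes, were also below the floor in both lines, at 3.50 and 3.55 in SW480 and 3.37 and 3.61 in SW620.

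Among the non-coding transcripts KCNQ1OT1 was well above the floor in both lines. It read 6.43, 6.71 and 6.41 in SW480 and 6.85, 6.66 and 6.76 in SW620. SW480 replicate 2 lay within the range of SW620, so the lines overlapped. The difference was 0.24 (standard error 0.10) and did not pass (adjusted p = 0.0788), with a 95% interval from 0.0262 to 0.46. It passed without SW480 replicate 2 (0.34, adjusted p = 0.0225 in limma) and after centring on the 75th percentile (0.27, adjusted p = 0.0477). Under 13 of 15 alternatives it did not pass. Without SW480 replicate 3 it was 0.19 (adjusted p = 0.239), the lowest value when single arrays were left out. KCNQ1DN, a further imprinted transcript of the same domain of chromosome 11, read 4.20, 4.18 and 4.12 in SW480 and 3.90, 4.24 and 4.20 in SW620. Its means, 4.17 and 4.11, were only slightly above the floor, and SW620 replicate 1 was below the median feature. Its difference of -0.0588 (95% interval -0.27 to 0.16) became 0.0474 without that array.

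CACNA1G-AS1 lies in antisense to CACNA1G, a T-type calcium channel gene whose promoter methylation is used to classify colorectal cancers. It read 4.21, 4.50 and 4.43 in SW480 and 4.60, 4.85 and 4.33 in SW620. All 6 arrays were above the median feature, and SW620 replicate 3 lay within the SW480 range. The difference was 0.22 (standard error 0.13, adjusted p = 0.217), and it was 0.35 and passed when SW620 replicate 3 was left out (adjusted p = 0.0368). Dropping SW620 replicate 2, the highest array, lowered the difference to 0.0865, and dropping SW480 replicate 1 lowered it to 0.13. Neither of these fits put CACNA1G-AS1 past the threshold (limma's adjusted p was 0.634 and 0.524). The gene missed the threshold under 14 of 15 alternatives. CACNA1G itself was not analysed here.

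The other 6 non-coding genes were below the floor in both lines. CACNA1C-AS4 and CACNA1C-IT3, both within the L-type calcium channel locus CACNA1C, had means of 3.36 and 3.38 in SW480 and 3.56 and 3.41 in SW620, and their differences of 0.21 and 0.0272 did not pass (adjusted p = 0.199 and 0.853). KCNAB1-AS1 and KCNAB1-AS2, antisense to a beta subunit gene of Kv channels, had means of 3.50 and 2.92 in SW480 and differed by 0.11 and 0.13 (adjusted p = 0.444 and 0.352). KCNQ5-AS1 differed by 0.0669 (adjusted p = 0.619), from 2.97 to 3.03. KCNJ2-AS1, next to the inward rectifier gene KCNJ2, had the lowest difference of the group, -0.14 (95% interval -0.34 to 0.0538, adjusted p = 0.260), with values from 3.48 to 3.68 in SW480 and from 3.35 to 3.50 in SW620. Arrays of the lines overlapped for all 6. None of the 9 non-coding genes passed limma's test (1, KCNQ1OT1, at an unadjusted p below 0.05), where 20.3% of 1398 long non-coding RNA genes did, 41.3% of those above the floor in at least 1 line and 6.42% of those below it in both. Here too the grouping by the floor sets part of the contrast.

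Among genes that work beside the channels, a few differed by over 2-fold and most did not pass. Of 31 measured partners and related cation channels, 2 rose, 5 fell and 24 did not pass, so 22.6% were called against 35.6% of all genes. Their median absolute difference was 0.11, beside 0.12 for the 14 genes, with a median difference of -0.00709 beside 0.0132 over all genes, and 17 were below the floor in both lines. LRRC26, an auxiliary subunit that lets BK potassium channels open at resting voltage in secretory epithelia, fell from 5.18 ± 0.14 in SW480 to 3.70 ± 0.0751 in SW620 (n = 3 each), 2.78-fold (-1.48, standard error 0.0942, adjusted p = 5.48e-08). Its SW620 mean was below the floor, so that fold is uncertain. AKAP9, which anchors protein kinase A to the KCNQ1 channel among other sites, was 2.18-fold lower (8.71 to 7.58, adjusted p = 4.57e-07). HCN2, a pacemaker cation channel, was 2.11-fold lower (4.86 to 3.78, adjusted p = 3.41e-06), and it too went below the floor in SW620. The BK partners LRRC38, LRRC52 and LRRC55 were below the floor in both lines and did not pass.

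**Figure D3:**
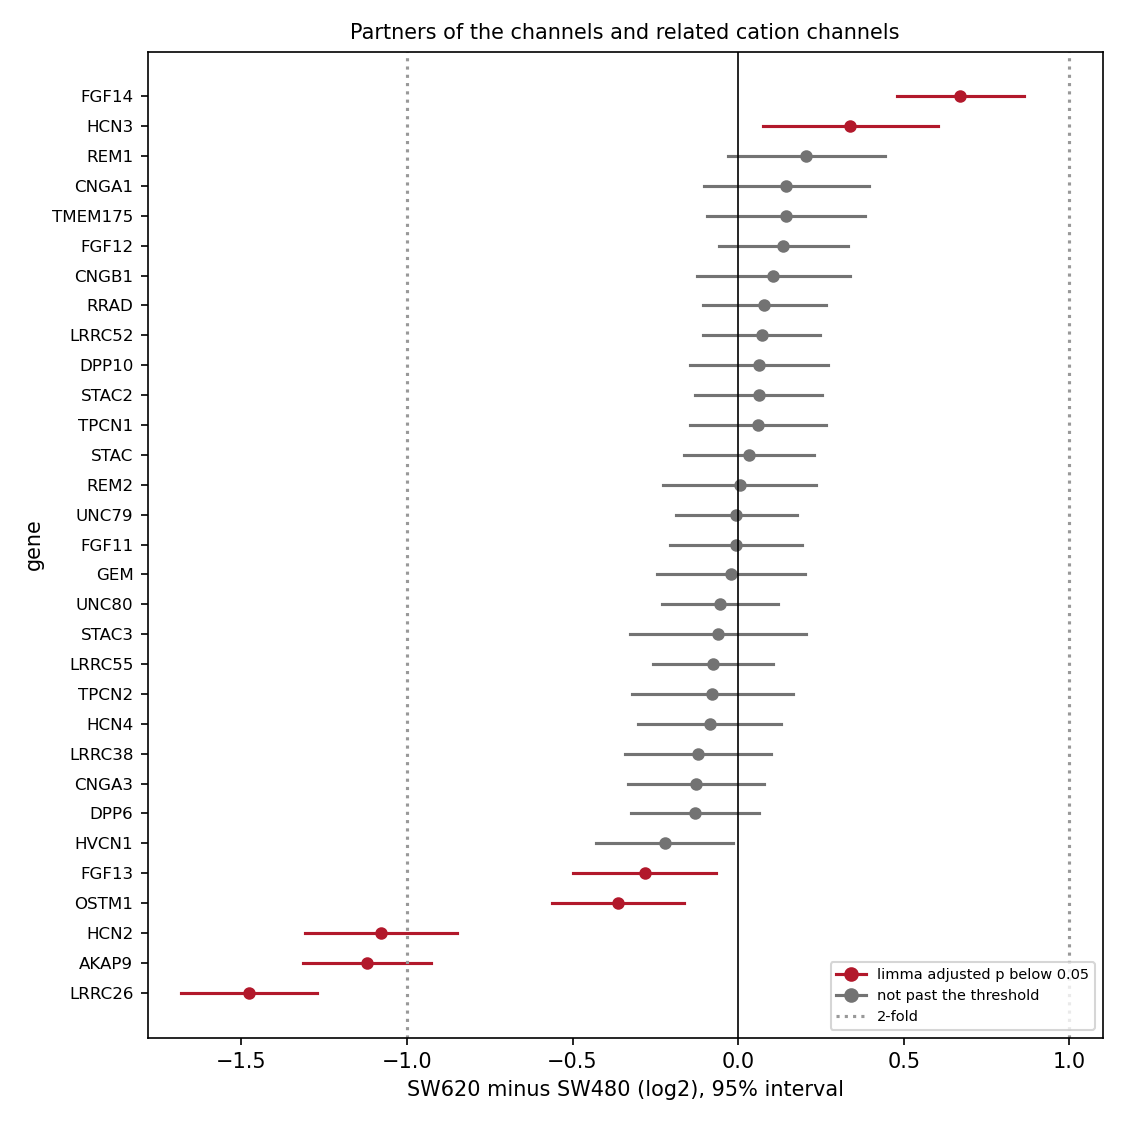
Difference between the lines for the 31 measured partners of the channels and related cation channels (SW620 minus SW480, log2 scale; points, with 95% intervals from limma as bars, 3 arrays per line), sorted from highest to lowest. LRRC26, AKAP9 and HCN2 lie below the dotted line that marks 2-fold lower, and 24 genes, in grey, did not pass.

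In the remaining lists, 10 of 33 genes of colonic ion transport and 10 of 33 of calcium entry and store release were measured. In the first list 2 of 10 passed and in the second 4 of 10, beside 35.6% of all genes. Of the first, 1 rose and 1 fell: BEST4, a bestrophin channel of a subset of colonocytes, by 0.45 (adjusted p = 0.00105) and below the floor in both lines, and CLIC4, an intracellular chloride channel protein, by -0.76 (adjusted p = 3.37e-05). Of the second, 2 rose and 2 fell. MCU, the pore of the mitochondrial calcium uniporter, rose 2.16-fold (7.23 to 8.34, adjusted p = 2.40e-07), the store sensor STIM2 rose by 0.31 (adjusted p = 0.0349) and the store-operated channel ORAI1 fell by 0.34 on the log2 scale (adjusted p = 0.00917). The STIM2 difference was 0.30 without SW480 replicate 1 and 0.32 without SW620 replicate 2, and it was 0.26 without SW480 replicate 2 and 0.21 without SW620 replicate 3. It did not pass in any of these (adjusted p from 0.0693 to 0.133). The fourth was PIEZO1, a mechanically gated channel named here after its values were seen, at -0.26 (adjusted p = 0.0426). Without any one of the SW480 arrays, or without SW620 replicate 1 or 2, only 1 gene of the second list passed as lower. That gene was ORAI1 (limma's adjusted p from 0.00725 to 0.0442), so PIEZO1 did not pass there. Without SW620 replicate 3, 2 genes passed as lower. The median differences of the first and second list were 0.0600 and 0.0157.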

How the data were processed

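Biotin-labelled cDNA was hybridised to 6 arrays, 3 per line, grouped by the line in the labels. The authors deposited 1 log2 value per feature and array, and the submitters' processing notes name Partek and RMA. Neither version nor setting is stated in the sources used. No base of the logarithm is stated; base 2 was assumed, as the values span 1.99 to 13.9. Of 53616 features, 16098 had 1 gene symbol in a platform annotation table, 0 had several, and 37518 were unnamed here and not used. The brightest feature stood for a gene.

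SW620 was set against SW480 in a two-sided moderated test without covariates (limma 3.58.1, R 4.3.3; prior degrees of freedom 8.39). P-values were adjusted by Benjamini-Hochberg over 14884 genes, and 0.05 was the threshold. The fit was tested on simulated data, with 50 genes changed at each size. It recovered 0 of 50 at a log2 change of 0.25, 25 at 0.5, 47 at 1 and 50 at 2. Far fewer genes changed there than were called in the data, so these shares need not hold for the data. With fewer changed genes the Benjamini-Hochberg cutoff is stricter. The differences of the group, at most 0.30, lie near the smallest size. KCNRG and KCNIP4 passed in the data at 0.30 and 0.27, so the 0 of 50 does not measure power in the data. The floor was planned as the 95th percentile of olfactory receptor genes; only 1 was in the table, under the 30 required, so the planned replacement, the median feature, was used. Every gene of the group is named. From related lists the rule took up to 3 genes past the threshold with the largest differences. The genes and lists were chosen with earlier results of these data known.

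Alternatives were other normalizations, a filter on dim genes, a trended robust variance, the mean of a gene's features, the replicate number as a block, a treat test against 1.2-fold, a threshold of 0.01, other floors, and leaving out each array. Same-numbered arrays did not deviate together (correlations from -0.0234 to -0.00889), so no pairing by number was seen in the values. The labels give only a replicate number and do not state whether same-numbered arrays were handled together. The number of arrays limits the precision.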

Additional observations from a re-analysis of the deposited data

How the results depend on the processing

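The count of channel-symbol genes past the threshold, 2 of 14 as reported, ranged from 0 to 2 when single arrays were left out. It was 3 (with KCNQ1OT1) after centring on the 75th percentile. It was 1 (KCNRG) after a repeat quantile normalization, after cyclic loess and among genes brighter than the median feature, and 0 at an adjusted p below 0.01 and with treat at 1.2-fold. At the threshold of 0.05 KCNIP4 kept its call under 7 of 14 alternatives and KCNRG under 9 of 15, and both differences stayed above 0 in all of these. The count above the floor was 2 in each line at the 75th percentile feature. At the 25th percentile feature, an alternative chosen after seeing the data, it was 6 in SW480 and 8 in SW620. Leaving out arrays gave 4 in SW480 and from 3 to 4 in SW620. With treat the count over all genes was 2465 in place of 5293, and the lists counted 1 for colonic ion transport, 1 for calcium entry and 4 for partners. At an adjusted p below 0.01 the calcium entry list counted 2, and without single arrays it ran from 2 to 4, the partners from 5 to 7, colonic ion transport from 2 to 3, and all genes from 4590 to 4984. Differences near 0 changed sign without passing the test. CACNA1C-IT3 gave -0.00498 after repeat quantile normalization and -0.00761 after cyclic loess, and KCNIP2 gave 0.0177 after centring on the 75th percentile. Without single arrays KCNIP2 ran from -0.0758 to 0.0851, CACNA1C-IT3 from -0.0240 to 0.0946, KCNE5 from -0.0442 to 0.11, KCNIP1 from -0.0252 to 0.11 and KCNQ1DN from -0.12 to 0.0474. With the replicate number as a block 5215 genes and 2 channel-symbol genes passed, and 0 of the 6 arrays correlated best with its own number across lines. The block moved no count by over 1.5 times. The 99th percentile of olfactory receptor genes was not run as a floor, since 1 such gene was in the table, and the median feature became the main setting.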
